A study of Homo sapiens with 8 samples.

Results

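The genes described here encode the machinery by which a cell senses its sterols and sets the activity of the SREBP transcription factors. They were chosen by name: INSIG1 and INSIG2, SCAP, MBTPS1, SREBF1 and SREBF2, and the sterol-handling genes NPC1, TMEM97 and STARD4. Every probe that the platform annotation assigned to one of these symbols was taken, which gave 14 of the 47323 probes on the array and 9 of 20046 genes. RNA was measured on Illumina beadchips, arrays that read each transcript as the brightness of a hybridised probe, in SKOV3 and OVCAR5, established human ovarian carcinoma cell lines. Each line was treated with lovastatin at 10 µM or with the solvent DMSO for 48 h, and all cells grew in RPMI-1640 medium with fetal calf serum, itself a source of cholesterol. Each of the 4 groups held 2 arrays. Nothing in the labels tells if these pairs stem from separate cultures, so p-values cover array-to-array spread alone, and the small number of arrays limits the precision.

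SREBP1 and SREBP2 are made as precursors in the membrane of the endoplasmic reticulum (ER), bound to the escort protein SCAP. When sterols are plentiful, INSIG proteins hold SCAP in the ER; when sterols fall, SCAP carries the precursor in COPII vesicles to the Golgi, where the site-1 protease, encoded by MBTPS1, makes the first cut. A further cut by the site-2 protease, encoded by MBTPS2, frees the factor for its journey to the nucleus. Statins inhibit the rate-limiting enzyme of the mevalonate pathway, from which cholesterol and the prenyl groups of many proteins are made.

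Levels below are log2 values after background correction and quantile normalisation, and probes are set against themselves only, since brightness differs between probes for reasons other than abundance. A probe counted as detected at a detection p under 0.01, and 14851 probes with 1 gene symbol that were detected on at least 2 arrays were tested. Of the 14 probes, 12 passed, covering 8 of the 9 genes; the STARD4 probe and 1 of the 3 SREBF1 probes were undetected on every array. Of the 12, 3 passed through some groups alone, and a probe that passes in this way through the group where it is high has to differ. The dimmer INSIG1 probe was detected on the 4 lovastatin arrays alone, the SREBF2 probe on the 4 SKOV3 arrays alone, and the second SREBF1 probe on 1 SKOV3 lovastatin and 1 OVCAR5 DMSO array. Where a group left a probe undetected, levels or a bound are given in place of a fitted change.

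Arrays had 15370 to 17231 detected probes. The epithelial genes KRT8, KRT18 and EPCAM and the Muellerian factor PAX8 were detected in all 4 groups, whereas CDH1, WT1 and MUC16 were detected on no array. KRT19, KRT7, MSLN and SOX17 were detected in SKOV3 alone. The leukocyte markers PTPRC and CD3D and all 4 endothelial markers looked at were undetected on every array. CD14 was detected in OVCAR5, and LYZ on 1 SKOV3 lovastatin and 1 OVCAR5 DMSO array. Of the fibroblast markers, COL1A2 and PDGFRB were undetected on every array and COL1A1 was detected in SKOV3. LUM was detected on the SKOV3 DMSO arrays alone, and DCN in SKOV3 and on 1 OVCAR5 DMSO array. The SKOV3 lovastatin arrays were the least alike, with an SD of their log2 difference of 0.349 against 0.249 to 0.273 in the other groups. In that group replicate 1 lay above replicate 2 for 11 of the 12 tested probes of the sterol-sensing genes, by a median of 0.25, against 52.3% of all tested probes with a median gap of 0.02. In the other groups replicate 1 was the higher for 5 or 6 of the 12. The changes in SKOV3 rest on these arrays, and each is given without one of them where that ends a call.

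Promoters of all 9 genes were read from RefSeq on build GRCh38.p14, as 250 bases before to 50 bases after the transcription start, to see which hold the letters that SREBPs and their partners are known to bind. The sterol regulatory element was searched as TCACNCCAC and as TCACCCCAC, the palindromic E-box as TCACGTGA and the site of the NF-Y complex as CCAAT, each on both strands and with overlaps between motifs allowed. The promoters below are printed 5′ to 3′ on the strand of the gene, with matches in capitals; they are the 3 with the most kinds or copies of match among the genes tested, and that of NPC1 for contrast. INSIG1 lies at chr7:155297628-155297927 on the plus strand, SREBF2 at chr22:41832855-41833154 on the plus strand, TMEM97 at chr17:28318950-28319249 on the plus strand and NPC1 at chr18:23586457-23586756 on the minus strand.
INSIG1: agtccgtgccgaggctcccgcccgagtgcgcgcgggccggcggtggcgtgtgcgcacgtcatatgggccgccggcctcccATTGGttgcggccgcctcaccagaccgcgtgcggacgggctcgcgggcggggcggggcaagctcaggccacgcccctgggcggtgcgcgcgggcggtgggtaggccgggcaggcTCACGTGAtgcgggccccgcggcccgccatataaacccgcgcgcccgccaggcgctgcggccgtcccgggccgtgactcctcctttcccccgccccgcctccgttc
SREBF2: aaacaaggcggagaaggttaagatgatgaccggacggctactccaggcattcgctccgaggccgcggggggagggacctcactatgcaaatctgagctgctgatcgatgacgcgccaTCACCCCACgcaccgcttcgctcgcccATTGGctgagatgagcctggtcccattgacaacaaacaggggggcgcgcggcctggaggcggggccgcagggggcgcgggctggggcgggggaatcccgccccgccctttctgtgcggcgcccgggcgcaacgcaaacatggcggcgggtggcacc
TMEM97: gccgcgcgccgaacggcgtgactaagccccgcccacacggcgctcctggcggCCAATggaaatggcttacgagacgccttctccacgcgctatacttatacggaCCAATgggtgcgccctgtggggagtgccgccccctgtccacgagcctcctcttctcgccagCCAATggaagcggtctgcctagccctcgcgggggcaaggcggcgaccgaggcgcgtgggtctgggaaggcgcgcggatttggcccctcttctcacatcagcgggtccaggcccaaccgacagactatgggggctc
NPC1: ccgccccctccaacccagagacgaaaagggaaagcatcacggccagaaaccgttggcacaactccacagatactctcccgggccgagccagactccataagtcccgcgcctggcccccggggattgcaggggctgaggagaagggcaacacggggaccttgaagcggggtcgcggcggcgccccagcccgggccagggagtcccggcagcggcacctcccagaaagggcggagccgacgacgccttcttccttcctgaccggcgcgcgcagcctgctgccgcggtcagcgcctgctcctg

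**Figure D1:**
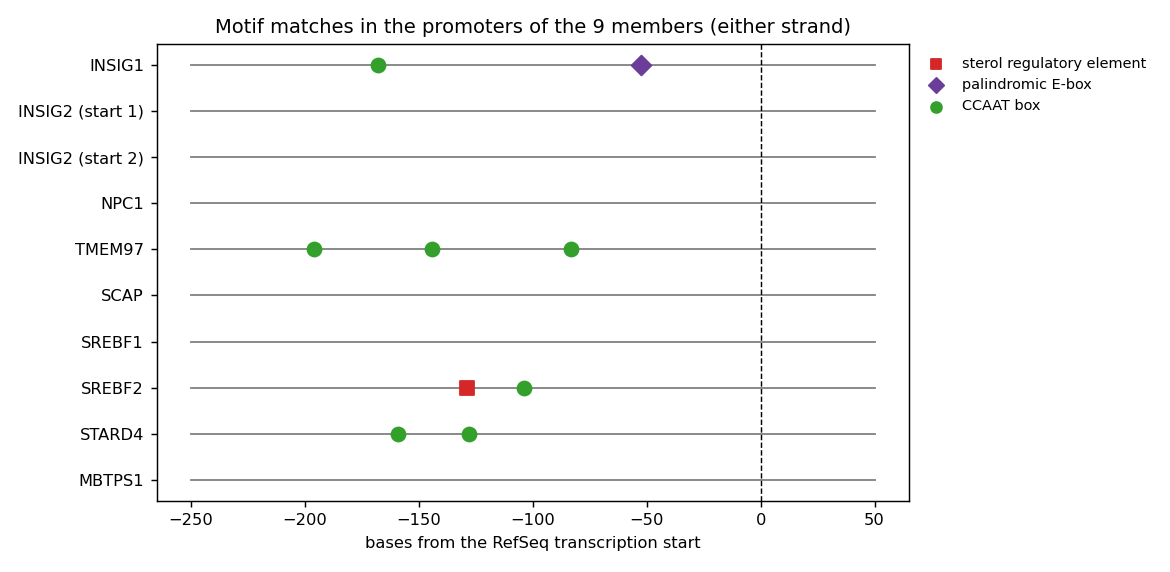
Position of each motif match in the promoters of the 9 genes, in bases from the RefSeq transcription start (dashed line), with 1 row per promoter entry and 1 symbol per kind of motif. Only INSIG1 has an E-box match and only SREBF2 a sterol regulatory element, while CCAAT matches lie in INSIG1, SREBF2, TMEM97 and STARD4.

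The INSIG1 promoter held the palindromic E-box at 56 to 49 bases before the start and a CCAAT match on the opposite strand, read as ATTGG, from 170 bases before it. In the SREBF2 promoter the sterol regulatory element TCACCCCAC began 133 bases before the start and was followed by a reversed CCAAT match from 106 bases before it. TMEM97 had 3 CCAAT matches, beginning 198, 146 and 85 bases before the start, and STARD4, whose promoter is not printed, had 2. No match was found in this window for NPC1, SCAP, SREBF1, MBTPS1 or either of the 2 promoter entries of INSIG2, which says only that these letters are not there.

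These letters are rare to common over promoters at large. Among all 35116 promoters of the table, 0.43% held TCACCCCAC, 1.13% held TCACNCCAC, 0.98% held the E-box and 34.6% held CCAAT. Counted over 9056 genes with a tested probe, by any promoter entry of the gene, these shares were 0.53%, 1.41%, 2.39% and 43.7%. A match is a description of the sequence and was not measured as binding here.

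The first question was what lovastatin did to these transcripts in SKOV3. INSIG1, INSIG2, NPC1, SREBF2 and 1 of the MBTPS1 probes were higher under lovastatin, by 0.52 to 2.0 on the log2 scale, SCAP and SREBF1 did not pass the test, and the TMEM97 probes went opposite ways. Of the 12 tested probes, 7 were higher and 1 was lower at a Benjamini-Hochberg adjusted p under 0.05 in limma. Over all 14851 tested probes 48.8% were called in this comparison, 25.1% upward and 23.7% downward. One of the 7 was the dimmer INSIG1 probe, which passed the filter through the lovastatin arrays alone. Of the 10 probes detected in both groups, 6 were higher and 1 was lower, where 25.3% and 24.4% of all 12795 such probes were called in these directions.

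In OVCAR5 the calls were fewer. INSIG1, NPC1 and 1 of the MBTPS1 probes were higher, by 0.53 to 1.07, and 1 TMEM97 probe was lower. Of the 12 tested probes, 4 were higher and 1 was lower, where 20.6% of all tested probes were called, 11.9% upward and 8.76% downward. The dimmer INSIG1 probe was again 1 of those called higher. Of the 9 probes detected in both groups, 3 were higher and 1 was lower, where 11.2% and 9.49% of all 12303 such probes were called in these directions. Arrays read pooled RNA of all cells, so fewer cells of a kind and less RNA per cell cannot be told apart.

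**Figure D2:**
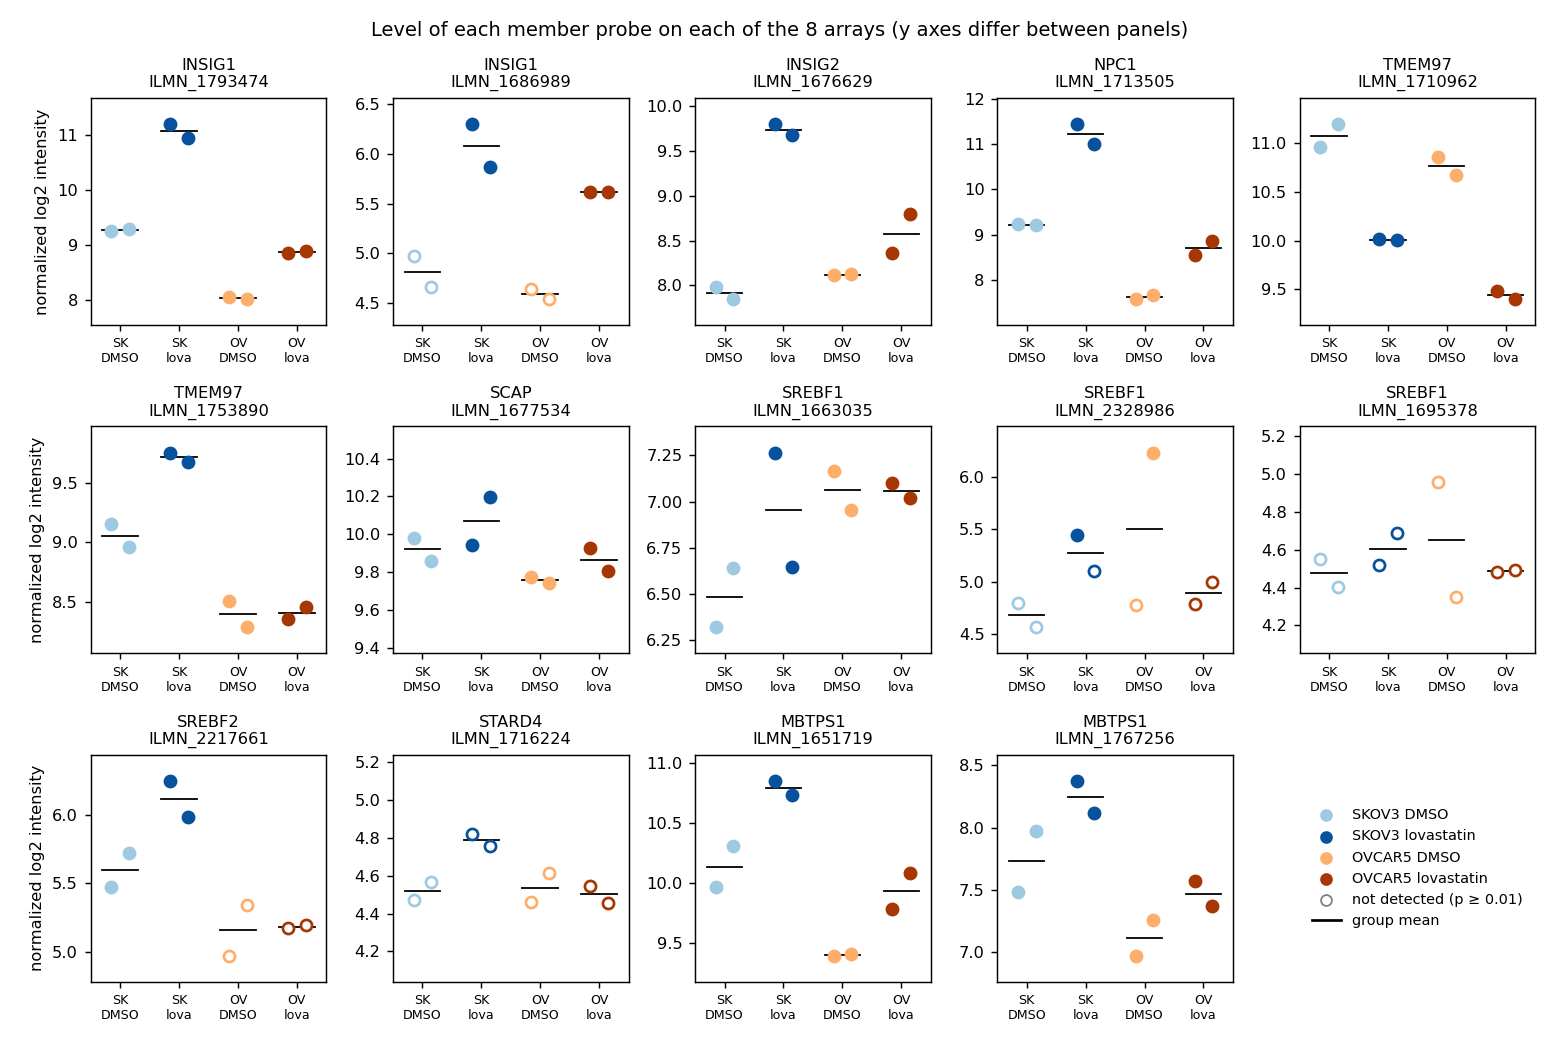
Log2 level of each of the 14 probes on each of the 8 arrays, 1 panel per probe, with points for the 2 arrays of each group; open points stand for arrays on which the probe was undetected. The INSIG1 and NPC1 probes stand higher under lovastatin in both lines, and the 2 TMEM97 probes differ in direction in SKOV3.

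INSIG1 holds the SCAP and SREBP complex in the ER and is itself a target of SREBP, which makes it a feedback brake. Its brighter probe, ILMN_1793474, read 9.26 and 9.29 on the SKOV3 DMSO arrays and 11.19 and 10.95 on the SKOV3 lovastatin arrays. In OVCAR5 it read 8.06 and 8.03 with DMSO and 8.87 and 8.90 with lovastatin. No groups overlapped, and the order from high to low was SKOV3 lovastatin, SKOV3 DMSO, OVCAR5 lovastatin, OVCAR5 DMSO, so that SKOV3 cells with DMSO stood above OVCAR5 cells with lovastatin, a comparison that was not tested. The change was 1.79 ± 0.13 (SE, n = 2 arrays per group) in SKOV3, a 3.46-fold rise (limma adjusted p = 1.5e-05), and 0.84 ± 0.13 in OVCAR5, a 1.79-fold rise (limma adjusted p = 0.00317).

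The dimmer INSIG1 probe, ILMN_1686989, was undetected on every DMSO array, so its change is a lower bound. It read 4.97 and 4.66 in SKOV3 with DMSO and 6.30 and 5.87 with lovastatin, and 4.64 and 4.55 in OVCAR5 with DMSO and 5.62 and 5.61 with lovastatin. The lovastatin arrays lay above the DMSO arrays in both lines. Set against the lowest detected signal, the level was at least 1.56-fold higher in SKOV3 and at least 1.05-fold higher in OVCAR5.

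INSIG2, the second retention protein, is the isoform known not to depend on SREBP for its transcription. Its probe, ILMN_1676629, read 7.99 and 7.85 in SKOV3 with DMSO and 9.80 and 9.68 with lovastatin. The OVCAR5 arrays read 8.11 and 8.13 with DMSO and 8.36 and 8.80 with lovastatin. The SKOV3 groups lay far apart, and the OVCAR5 lovastatin arrays lay above the DMSO arrays with a wide gap between themselves.

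INSIG2 rose by 1.82 ± 0.16 in SKOV3, which was 3.53-fold (limma adjusted p = 4.96e-05). The change of 0.45 ± 0.16 in OVCAR5 missed the threshold (limma adjusted p = 0.0822, 95% interval 0.08 to 0.83). With 1 array left out the OVCAR5 change lay between 0.24 and 0.67, the highest without OVCAR5 lovastatin replicate 1. The order of the groups differed from that of INSIG1: SKOV3 lovastatin stood highest and SKOV3 DMSO lowest, with both OVCAR5 groups between them.

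SCAP carries the sterol sensor and escorts SREBP. Its probe, ILMN_1677534, read 9.98 and 9.86 in SKOV3 with DMSO and 9.94 and 10.20 with lovastatin, and 9.77 and 9.74 in OVCAR5 with DMSO and 9.93 and 9.80 with lovastatin. The SKOV3 groups overlapped. The change was 0.15 ± 0.14 in SKOV3 (95% interval -0.16 to 0.46, limma adjusted p = 0.394) and 0.11 ± 0.14 in OVCAR5 (95% interval -0.20 to 0.42, limma adjusted p = 0.633).

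MBTPS1, the site-1 protease, was read by 2 probes that moved together, with a correlation of 0.94 over the 8 arrays. The brighter, ILMN_1651719, read 9.97 and 10.31 in SKOV3 with DMSO and 10.85 and 10.74 with lovastatin, and 9.40 and 9.41 in OVCAR5 with DMSO and 9.79 and 10.08 with lovastatin. The dimmer, ILMN_1767256, read 7.48 and 7.98 in SKOV3 with DMSO and 8.37 and 8.12 with lovastatin, and 6.98 and 7.26 in OVCAR5 with DMSO and 7.58 and 7.37 with lovastatin. On both probes and in both lines the lovastatin arrays lay above the DMSO arrays.

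The brighter MBTPS1 probe rose by 0.65 ± 0.16 in SKOV3 (limma adjusted p = 0.00984), a call lost without SKOV3 DMSO replicate 1, at 0.48 (adjusted p = 0.0741). In OVCAR5 it rose by 0.53 ± 0.16 (limma adjusted p = 0.0493). That call was lost without either SKOV3 lovastatin array (adjusted p = 0.0518) and without any 1 of the 4 OVCAR5 arrays, where the change lay between 0.38 and 0.68 and the adjusted p reached 0.253. The dimmer probe had values of 0.52 ± 0.20 in SKOV3 (limma adjusted p = 0.0572) and 0.35 ± 0.20 in OVCAR5 (limma adjusted p = 0.242). Its SKOV3 change lay between 0.27 and 0.76 with 1 array left out, the highest without SKOV3 DMSO replicate 2.

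SREBF1 encodes SREBP1, which mainly drives fatty acid genes. The brightest of its probes, ILMN_1663035, read 6.32 and 6.64 in SKOV3 with DMSO and 7.27 and 6.65 with lovastatin, and 7.17 and 6.96 in OVCAR5 with DMSO and 7.10 and 7.02 with lovastatin. In SKOV3 the lovastatin arrays lay above the DMSO arrays with almost no gap between the nearest of them, and in OVCAR5 the groups overlapped.

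The change in SREBF1 was 0.47 ± 0.21 in SKOV3 (95% interval -0.01 to 0.96, limma adjusted p = 0.0974) and -0.002 ± 0.21 in OVCAR5 (95% interval -0.49 to 0.48, limma adjusted p = 0.995). The SKOV3 value depended on single arrays. With 1 array left out it lay between 0.16 and 0.78, the highest without SKOV3 lovastatin replicate 2. The second probe, ILMN_2328986, read 4.80 and 4.56, then 5.45 and 5.10, in SKOV3, and 4.78 and 6.24, then 4.79 and 5.0, in OVCAR5, in the same order of treatments. It was detected on 1 of 4 arrays in each line, so no change is given for it. The third, ILMN_1695378, ranged from 4.35 to 4.96 over the 8 arrays and was not tested.

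SREBF2 encodes SREBP2, which mainly drives cholesterol synthesis and uptake. Its probe, ILMN_2217661, was dim, at 5.47 and 5.72 in SKOV3 with DMSO and 6.25 and 5.98 with lovastatin. In OVCAR5, where no array detected it, it read 4.97 and 5.34 with DMSO and 5.18 and 5.19 with lovastatin. The SKOV3 lovastatin arrays lay above the SKOV3 DMSO arrays, and the OVCAR5 groups overlapped.

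SREBF2 rose by 0.52 ± 0.17 in SKOV3 (limma adjusted p = 0.0329). The call did not hold without SKOV3 DMSO replicate 1 (0.40, adjusted p = 0.18), without SKOV3 lovastatin replicate 1 (0.39, adjusted p = 0.144) or without either OVCAR5 lovastatin array (adjusted p = 0.0511). It was also lost without background correction, where the change was 0.19 (adjusted p = 0.0911). In OVCAR5 both groups were below detection, and no change is given.

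NPC1 moves cholesterol out of late endosomes and lysosomes and carries a sterol-sensing domain like that of SCAP. Its probe, ILMN_1713505, read 9.25 and 9.21 in SKOV3 with DMSO and 11.44 and 11.01 with lovastatin, and 7.59 and 7.67 in OVCAR5 with DMSO and 8.55 and 8.86 with lovastatin. No groups overlapped, and their order was that of INSIG1. NPC1 rose 3.99-fold in SKOV3, 2.0 ± 0.17 on the log2 scale (limma adjusted p = 4.43e-05), and 2.10-fold in OVCAR5, 1.07 ± 0.17 (limma adjusted p = 0.00416).

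TMEM97, the sigma-2 receptor, binds NPC1 and is known as a target of SREBP. Its brighter probe, ILMN_1710962, read 10.96 and 11.19 in SKOV3 with DMSO and 10.02 and 10.00 with lovastatin, and 10.86 and 10.67 in OVCAR5 with DMSO and 9.48 and 9.41 with lovastatin. Every lovastatin array lay below every DMSO array, also across the lines. The dimmer probe, ILMN_1753890, read 9.15 and 8.96 in SKOV3 with DMSO and 9.75 and 9.68 with lovastatin, and 8.51 and 8.29 in OVCAR5 with DMSO and 8.36 and 8.46 with lovastatin. On this probe the lovastatin arrays lay above the DMSO arrays in SKOV3 and among them in OVCAR5.

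The brighter TMEM97 probe fell 2.09-fold in SKOV3, at -1.06 ± 0.13 (limma adjusted p = 0.000329), and 2.50-fold in OVCAR5, at -1.32 ± 0.13 (limma adjusted p = 0.000519). The dimmer probe rose by 0.66 ± 0.14 in SKOV3 (limma adjusted p = 0.00422) and had a value of 0.01 ± 0.14 in OVCAR5 (95% interval -0.30 to 0.32, limma adjusted p = 0.969). The probes correlated at 0.05 over the 8 arrays, whereas the INSIG1 pair correlated at 0.80. Opposite calls within a gene were uncommon: of 2950 genes with several tested probes, 34 (1.15%) had probes called both ways in SKOV3, TMEM97 among them, and 5 (0.169%) in OVCAR5. The direction of TMEM97 therefore depended on the probe, and which transcripts each probe reads was not tested.

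STARD4, which carries cholesterol between membranes inside the cell and is known as a target of SREBP2, was undetected throughout. Its probe, ILMN_1716224, read between 4.46 and 4.82 on the 8 arrays, and both of the highest values, 4.82 and 4.76, were from SKOV3 with lovastatin. No change is given for it.

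**Figure D3:**
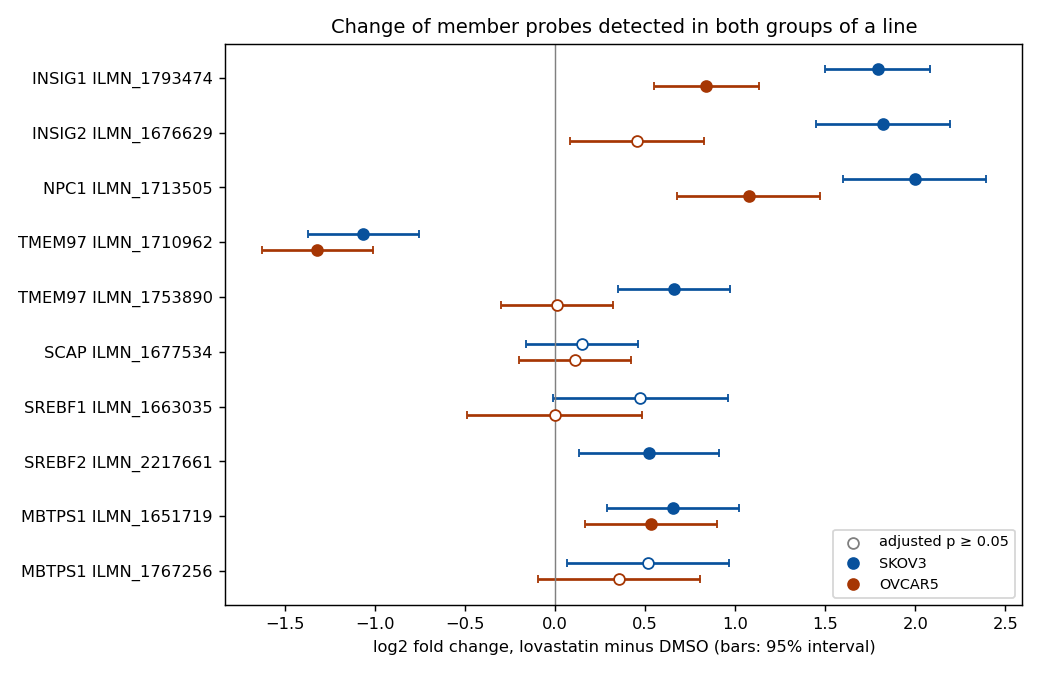
Log2 change with lovastatin against DMSO for each probe detected in both groups of a line, with points for the fitted change and bars for the 95% interval (n = 2 arrays per group). The intervals of INSIG1, INSIG2 and NPC1 lie above 0 in both lines, with larger values in SKOV3, while the brighter TMEM97 probe lies below 0 in both.

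The second question was whether the lines differed in their response. The difference of the changes, SKOV3 minus OVCAR5, was tested directly and shares its arrays with the comparisons above. It was called for 4 of the 12 probes, all in the direction of a larger change in SKOV3, where 25.3% of all tested probes were called, 11.7% in that direction. All 4 were among the 9 probes detected in every group, where 10.6% of all 11132 such probes were called in that direction. INSIG2 had the largest of these differences, at 1.37 ± 0.23 (limma adjusted p = 0.00387). For the brighter INSIG1 probe it was 0.95 ± 0.18 (limma adjusted p = 0.0066), for NPC1 0.92 ± 0.25 (limma adjusted p = 0.0272) and for the dimmer TMEM97 probe 0.65 ± 0.19 (limma adjusted p = 0.0399).

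The differences for INSIG1 and INSIG2 kept their calls when any single array was left out. That of NPC1 lost its call without either SKOV3 DMSO array, either OVCAR5 DMSO array or OVCAR5 lovastatin replicate 1, at 0.77 to 0.96 with adjusted p from 0.0588 to 0.0946. That of the dimmer TMEM97 probe held its call only without SKOV3 lovastatin replicate 2, and without each other array it lay between 0.54 and 0.76 with adjusted p from 0.0544 to 0.137. As a count, 2 probes were called without either SKOV3 DMSO array, without OVCAR5 DMSO replicate 2 or without OVCAR5 lovastatin replicate 1.

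For the other 5 probes detected in every group the difference was not called. The SCAP probe is among them. The brighter TMEM97 probe differed by 0.26 ± 0.19 between the lines (95% interval -0.18 to 0.69, limma adjusted p = 0.361). The MBTPS1 probes differed by 0.12 ± 0.23 (95% interval -0.40 to 0.64) and 0.16 ± 0.28 (95% interval -0.47 to 0.80). The brightest SREBF1 probe differed by 0.48 ± 0.30 (limma adjusted p = 0.282). With 1 array left out its difference lay between 0.17 and 0.79, the highest without SKOV3 lovastatin replicate 2.

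Averaged over both lines, 7 of the 12 probes were higher and 1 was lower under lovastatin, where 49.8% of all tested probes were called, 26% upward and 23.8% downward. Without the dimmer INSIG1 probe and the others that a group left undetected, 6 of 9 were higher and 1 was lower. Of all 11132 probes detected in every group, 24.9% were called higher and 25.2% lower. NPC1 had the largest mean change, at 1.53 ± 0.12 (limma adjusted p = 3.21e-05), followed by the brighter INSIG1 probe at 1.32 ± 0.09 and INSIG2 at 1.14 ± 0.11. MBTPS1 was called on both probes, at 0.59 ± 0.11 (limma adjusted p = 0.00289) and 0.44 ± 0.14 (limma adjusted p = 0.0294). The call of its dimmer probe was lost without any 1 of the 4 arrays numbered replicate 1, where the mean change lay between 0.31 and 0.38 with adjusted p up to 0.096. The brighter TMEM97 probe fell, at -1.19 ± 0.10. The dimmer one, at 0.34 ± 0.10 (limma adjusted p = 0.0193), lost its call without SKOV3 DMSO replicate 2, OVCAR5 DMSO replicate 2 or OVCAR5 lovastatin replicate 2, at 0.28 to 0.31 with adjusted p up to 0.0776.

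The lines were also set against each other within a treatment, comparisons that share arrays with those above. In DMSO, INSIG1 stood 2.35-fold higher in SKOV3 than in OVCAR5 on its brighter probe, 1.23 ± 0.13 on the log2 scale (limma adjusted p = 5.69e-05), and NPC1 3.02-fold higher, 1.60 ± 0.17 (limma adjusted p = 7.62e-05). MBTPS1 was higher in SKOV3 by 0.74 ± 0.16 and 0.61 ± 0.20 on its probes, and the dimmer TMEM97 probe by 0.66 ± 0.14. SREBF1 was lower, at -0.58 ± 0.21 (limma adjusted p = 0.0424), a call lost without SKOV3 DMSO replicate 1 (-0.42, adjusted p = 0.223) or any single OVCAR5 array (adjusted p from 0.06 to 0.173). The call of the dimmer MBTPS1 probe was lost without SKOV3 DMSO replicate 2 (0.37, adjusted p = 0.175) or OVCAR5 DMSO replicate 1 (0.47, adjusted p = 0.138). INSIG2 had a value of -0.20 ± 0.16 (limma adjusted p = 0.309). In all, 5 of the 12 probes were higher and 1 was lower in SKOV3, where 30.7% of all tested probes were higher and 29.8% lower. Over these 12 the share called in either direction was no higher than the 60.5% of all tested probes. Of the 9 probes detected in both groups, 5 were higher and 1 was lower, where 26.3% and 30.9% of all 11730 such probes were called in these directions.

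The same comparison was made between the lovastatin groups. NPC1 was 5.73-fold higher in SKOV3, 2.52 ± 0.17 (limma adjusted p = 4.3e-06), INSIG1 was 4.55-fold higher, 2.19 ± 0.13 (limma adjusted p = 1.72e-06), and INSIG2 was 2.24-fold higher, 1.16 ± 0.16 (limma adjusted p = 0.000268). SREBF2, undetected in OVCAR5, was at least 1.55-fold higher in SKOV3, having passed the filter through the SKOV3 arrays alone. Both TMEM97 probes were higher in SKOV3, by 0.57 ± 0.13 and 1.31 ± 0.14. The dimmer INSIG1 probe was higher by 0.47 ± 0.17 (limma adjusted p = 0.0419), a call lost without SKOV3 lovastatin replicate 1 (0.25, adjusted p = 0.215) or any single OVCAR5 array (adjusted p from 0.056 to 0.122). MBTPS1 was higher by 0.86 ± 0.16 and 0.78 ± 0.20, the latter not called without OVCAR5 lovastatin replicate 2 (0.67, adjusted p = 0.0508). SREBF1 had a value of -0.10 ± 0.21 on its brightest probe (limma adjusted p = 0.687). Of the 12 probes, 9 were higher and 0 were lower, with 66.6% of all tested probes called, 33.5% higher in SKOV3 and 33.1% lower. One of the 9 was SREBF2, and of the 10 probes detected in both groups 8 were higher, where 30.2% of all 12011 such probes were.

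The nearest profiles over the 8 arrays were read as Pearson correlations between the brightest tested probe of each gene, given as a description. The arrays fall into 4 groups, so such a correlation mostly compares 4 group means. NPC1 was closest to INSIG1, at 0.997, followed by RIOK3, CAMK2N1, GFPT1 and P4HA2, the last at 0.995. INSIG1 was closest to RIOK3, at 0.998, DHPS, R3HDM4, SPIRE1 and IGFBP6. For INSIG2 the 5 nearest were SUN3, at 0.992, MAPRE3, SEL1L3, WARS1 and CHRNB1, at 0.983. For the brighter TMEM97 probe they were RIMS2, at 0.988, SCHIP1, SUPT20H, EVA1A and OAS3, at 0.98, and for SREBF1 they were APEH, at 0.99, MIGA2, HIRA, ANKRD13C and CAPN15, at 0.939. INSIG1 and INSIG2 correlated at 0.838, below INSIG1 with NPC1 and with MBTPS1, at 0.965. Of these 5 genes, NPC1 alone had another sterol-sensing gene among its 5 nearest.

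Genes that act around these were counted by list, each gene by its brightest tested probe. Over all 11218 genes tested in this way the median change was 0.03 in SKOV3 and 0.01 in OVCAR5. In SKOV3 49.5% of these genes were called, 26.1% higher and 23.4% lower, and in OVCAR5 21.4% were called, 12.8% higher and 8.68% lower. The counts below are to be read against these shares, and nothing is called particular to a list. The COPII coat, which packs SCAP and SREBP into vesicles, had 2 genes higher and 0 lower of 10 in SKOV3, median 0.31. In OVCAR5 it had 1 higher and 0 lower, median 0.08. With arrays scaled to equal medians its OVCAR5 median was -0.02, where that of all tested probes was -0.12. SEC24D, a cargo-binding coat subunit, rose by 1.54 ± 0.20 in SKOV3 (limma adjusted p = 0.000412) and by 0.84 ± 0.20 in OVCAR5 (limma adjusted p = 0.0223), a call lost without any 1 OVCAR5 array (0.79 to 0.89, adjusted p up to 0.108). SEC24A, its paralogue, rose by 0.89 ± 0.13 in SKOV3 (limma adjusted p = 0.000682) and had a value of 0.37 ± 0.13 in OVCAR5 (limma adjusted p = 0.0788).

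Among the proteases and chaperones that act on SREBP or on its protease, 2 of 6 were higher and 0 lower in SKOV3, and 1 was higher and 0 lower in OVCAR5. HSPA5, the ER chaperone BiP, rose by 2.03 ± 0.13 in SKOV3 (limma adjusted p = 8.49e-06) and by 0.62 ± 0.13 in OVCAR5 (limma adjusted p = 0.0113), where the call was lost without either DMSO array or lovastatin replicate 1 (0.57 to 0.63, adjusted p up to 0.0797). FURIN, a Golgi protease, rose by 1.28 ± 0.34 in SKOV3 (limma adjusted p = 0.0131), a call lost without SKOV3 DMSO replicate 1 (1.15, adjusted p = 0.0797) or SKOV3 lovastatin replicate 1 (0.97, adjusted p = 0.0937). SPRING1, which helps mature the site-1 protease, had values of 0.05 ± 0.15 and -0.12 ± 0.15 in SKOV3 and OVCAR5. PAQR3, which tethers SCAP to the Golgi, had values of -0.22 ± 0.18 and 0.45 ± 0.18.

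Genes listed under sterol-regulated degradation in the ER were called in both directions in SKOV3. Most of them serve the removal of INSIG proteins and sterol enzymes, but FBXW7, listed with them, is not part of that ER machinery. Of the 9 tested of 13 listed, 4 were higher and 4 lower in SKOV3, and 1 was higher and 1 lower in OVCAR5. The SKOV3 counts were 3 higher and 1 lower without SKOV3 DMSO replicate 1, and 2 and 3 without SKOV3 lovastatin replicate 1. The gene called lower in OVCAR5 was UFD1, a cofactor that helps extract proteins from the ER, at -0.49 (limma adjusted p = 0.039), and it kept that call under 6 of 19 alternatives. The OVCAR5 count of lower genes was 0 without either SKOV3 DMSO array or any 1 OVCAR5 array (adjusted p for UFD1 from 0.0642 to 0.18). The other tested UFD1 probe had a value of -0.085 in OVCAR5. RNF145, a sterol-responsive ubiquitin ligase, rose by 0.97 ± 0.13 in SKOV3 (limma adjusted p = 0.000449) and by 1.27 ± 0.13 in OVCAR5 (limma adjusted p = 0.000526). ERLIN1, part of a complex in the ER membrane, fell in SKOV3, at -1.25 ± 0.16 (limma adjusted p = 0.000381), and had a value of -0.22 ± 0.16 in OVCAR5.

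**Figure D4:**
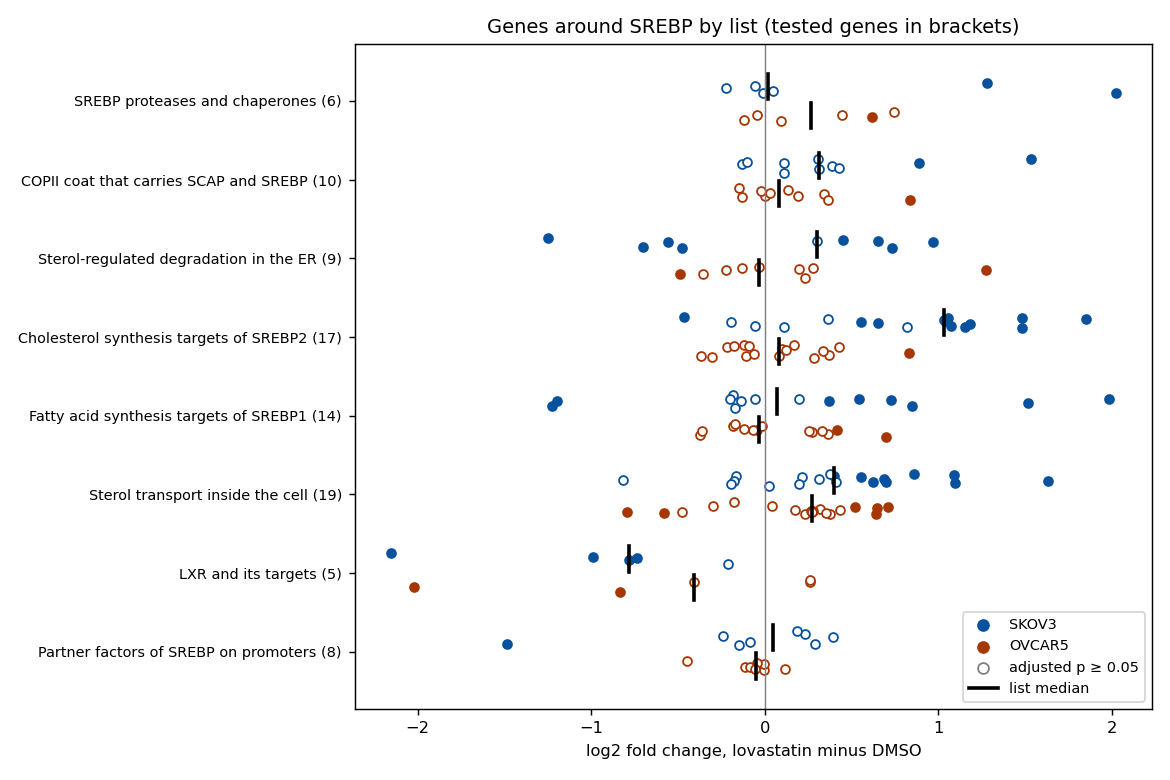
Log2 change under lovastatin of each tested gene in 8 lists around SREBP, by line, with filled points for an adjusted p under 0.05, open points otherwise and a black mark at the list's median. Cholesterol synthesis has 11 genes higher and 1 lower in SKOV3 and 1 higher and 0 lower in OVCAR5, and the list of LXR and its targets has 4 and 2 lower.

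The lists of SREBP targets were set beside the regulators. Cholesterol synthesis genes had 11 higher and 1 lower of 17 in SKOV3, median 1.04, and 1 higher and 0 lower in OVCAR5, median 0.09. The gene called lower in SKOV3 was detected on 1 of 2 SKOV3 lovastatin arrays. The SKOV3 count of lower genes was 0 without the filter on dim probes, without background correction or with an offset of 50. The line difference was called for 8 of the 17, all larger in SKOV3. Over all 11218 genes 26.1% were called for it, 12.2% in that direction. Among the 8 was MVK, which was undetected on both OVCAR5 lovastatin arrays. The gene called in OVCAR5 was LSS, lanosterol synthase, at 0.83 ± 0.14 (limma adjusted p = 0.00558), and its other tested probe had a value of 0.06. In OVCAR5 the median of this list was -0.06 when arrays were scaled to equal medians, where that of all tested probes was -0.12. Beside INSIG1 and NPC1, which rose in OVCAR5, HMGCS1, an early enzyme of the mevalonate pathway, had a value of 0.17 ± 0.12 there (limma adjusted p = 0.377) and SQLE, squalene epoxidase, of 0.29 ± 0.19 (limma adjusted p = 0.329). Of the 15 genes of this list with a promoter in the table, 13 held CCAAT and 0 held either form of the sterol regulatory element. Among 9056 genes with a tested probe, 43.7% held CCAAT, 0.53% held TCACCCCAC and 1.41% held TCACNCCAC. With letters this rare, 0 of 15 does not set the list apart, and other forms or places of the element were not searched.

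Fatty acid synthesis genes had 6 higher and 2 lower of 14 in SKOV3 and 2 higher and 0 lower in OVCAR5. One of the 2 lower was ACACB, which passed the filter through the SKOV3 DMSO arrays alone. The SKOV3 count of higher genes was 5 without the filter on dim probes or with arrays scaled to equal medians. The OVCAR5 count was 1 without either SKOV3 DMSO array or any 1 OVCAR5 array, where SCD, the stearoyl-CoA desaturase, lost its call (0.42 with all arrays, limma adjusted p = 0.0446, against adjusted p from 0.0647 to 0.216), and 3 without either SKOV3 lovastatin array. ACSS2, which makes acetyl-CoA from acetate, rose by 1.99 ± 0.15 in SKOV3 (limma adjusted p = 2.28e-05), and ELOVL6, a fatty acid elongase, rose by 0.70 ± 0.12 in OVCAR5 (limma adjusted p = 0.00501) with a value of 0.20 ± 0.12 in SKOV3. Genes of sterol transport inside the cell had 9 higher and 0 lower of 19 in SKOV3, median 0.40, and 4 higher and 2 lower in OVCAR5, median 0.27. Without OVCAR5 lovastatin replicate 1 the OVCAR5 counts were 0 and 0, and without either SKOV3 lovastatin array they were 6 and 3. LAMP2, a lysosomal membrane protein that binds cholesterol, rose by 1.09 ± 0.14 in SKOV3 (limma adjusted p = 0.000368), and SCARB2, a lysosomal transporter, rose in both lines, by 0.70 ± 0.12 and 0.64 ± 0.12. Without OVCAR5 DMSO replicate 2 or OVCAR5 lovastatin replicate 1, SCARB2 was not called in OVCAR5 (0.56 and 0.60, adjusted p = 0.0717 and 0.0657).

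LXR is the oxysterol receptor that opposes sterol accumulation. The list of LXR and its targets had 5 tested genes, chosen by name, and does not stand for LXR targets at large. Of these 5, 0 were higher and 4 lower in SKOV3, and 0 were higher and 2 lower in OVCAR5. The OVCAR5 count was 1 without OVCAR5 DMSO replicate 1 or either OVCAR5 lovastatin array, where ABCG1, a cholesterol exporter, lost its call (-0.83 with all arrays, limma adjusted p = 0.0237, against adjusted p from 0.0551 to 0.133), and 3 with either SKOV3 lovastatin array left out. ABCG1 was detected on 1 of 2 OVCAR5 lovastatin arrays, with a mean level of 5.44 there, and 1 of its 5 probes was tested. MYLIP, a ligase that degrades lipoprotein receptors, fell in both lines, at -0.78 ± 0.12 in SKOV3 and -2.02 ± 0.12 in OVCAR5 (limma adjusted p = 0.00115 and 4.89e-05). LPCAT3, a phospholipid enzyme, fell in SKOV3, at -0.99 ± 0.14 (limma adjusted p = 0.000489).

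Among the partner factors that bind promoters with SREBP, 0 of 8 were higher and 1 lower in SKOV3, and in OVCAR5 limma called 0, with 0 at an unadjusted p under 0.05. NFYA, a subunit of the complex that binds CCAAT, fell in SKOV3, at -1.49 ± 0.14 (limma adjusted p = 7.29e-05), where it was detected on 1 of 2 lovastatin arrays, and had a value of -0.12 ± 0.14 in OVCAR5 (limma adjusted p = 0.623). NFYB, another subunit, was detected on 1 SKOV3 DMSO and 1 OVCAR5 DMSO array and on no lovastatin array.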

How the data were processed

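RNA of 8 samples was read on Illumina beadchips. The deposited table of mean bead intensity per probe is neither background-subtracted nor normalised, per the file headers and the values. It also holds a detection p-value per probe and array, which the authors deposited with it. The authors also deposited log2 values, for which the submitters' processing notes name limma without a version. Of its values, 99.997% in SKOV3 and 99.987% in OVCAR5 lay within 0.01 log2 of neqc run within a line.

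The intensities of all 8 arrays were processed in R 4.3.3 by the neqc function of limma 3.58.1 (background from detection p-values, quantile normalisation, offset 16). Figures used Python 3.11.15 with matplotlib 3.10.9. By the platform annotation 30113 probes had a single symbol, of which 30074 matched RefSeq, 8 had several, and 17202 had no name here. A linear model of 4 group means with eBayes was fitted to the 14851 tested probes, with Benjamini-Hochberg adjustment over all of them and calls at an adjusted p under 0.05. The labels' replicate numbers were not used as a block: same-numbered arrays deviated together at a correlation of 0.213 in SKOV3 and -0.013 in OVCAR5. The steps were tested on simulated data. The genes and lists were chosen with earlier results of these data known. All probes of the 9 genes are named; of each list, the up to 4 genes with the largest change in either line, with HMGCS1, SQLE and ABCA1, could be named, and for likeness the 5 with the highest correlation. Alternatives covered background, scaling, offset, filter, probe choice, the model and leaving out each array.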

Additional observations from a re-analysis of the deposited data

Results flagged for a closer look

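The change with lovastatin differed between the lines for 4 probes of the sterol-sensing genes, by limma's test of the difference itself (SKOV3 minus OVCAR5, log2, adjusted p under 0.05). The difference was 0.95 ± 0.18 for the brighter INSIG1 probe, 1.37 ± 0.23 for INSIG2, 0.92 ± 0.25 for NPC1 and 0.65 ± 0.19 for the dimmer TMEM97 probe. Over all tested probes 25.3% were called. The call of NPC1 held under 11 of 16 alternatives and that of the dimmer TMEM97 probe under 6 of 15.

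The same test also called genes of the lists around them, where positive values stand for a higher change in SKOV3. Over all 11218 genes it called 26.1%, with 12.2% positive and 13.8% negative. In cholesterol synthesis the difference was 1.02 for ACAT2, 1.31 for HMGCS1, 1.60 for MVD, 0.90 for SQLE and 1.48 for MSMO1. In fatty acid synthesis it was 1.66 for ACSS2, 1.10 for SCD and -1.03 for GPAM. In sterol transport it was 1.40 for STARD3, a cholesterol-binding protein of endosomes, and 0.82 for LAMP2.

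Among chaperones and ER degradation genes the difference was 1.41 for HSPA5, -1.02 for ERLIN1 and -0.90 for VCP. It was 0.80 for FBXW7, which was listed with them but is not part of that ER machinery. In the list of LXR and its targets it was -1.0 for NR1H3, which encodes LXR alpha, -2.42 for ABCA1, the cholesterol exporter, and 1.24 for MYLIP. ABCA1 changed by -2.15 in SKOV3, where 1 of 2 lovastatin arrays detected it, and had a value of 0.26 in OVCAR5. NFYA differed by -1.37. Some of these calls were close to the threshold: that of VCP (adjusted p = 0.0404) held under 8 of 16 alternatives, that of SQLE (adjusted p = 0.04) under 9 and that of LAMP2 under 11. The fall of VCP in SKOV3 was itself lost without either SKOV3 DMSO array or SKOV3 lovastatin replicate 1 (adjusted p from 0.0576 to 0.0747).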

How the results depend on the processing

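Over 940 comparisons of the value of a probe detected in every group compared with an alternative, 855 kept direction and side of the threshold, 61 lost a call, 12 gained one and 12 turned direction. Some alternatives, such as another filter or leaving out an array of the other line, cannot move a within-line change or its direction. Values that stayed uncalled also count as kept. Calls for the brighter INSIG1 probe, NPC1 and the brighter TMEM97 probe in either line and for INSIG2 in SKOV3 held under all alternatives that kept the probe. With normexp and equal medians in place of quantile scaling, the median change over tested probes in OVCAR5 moved to -0.12 and the share of calls that were upward from 57.6% to 41.7%; there the uncalled value of the dimmer TMEM97 probe turned in OVCAR5 (-0.065), and the cause was not tested. With the brightest probe per gene, 5 members were called over both lines, fewer by construction. Leaving out 1 array at a time, where the lone array left in a group is assumed to vary like the others, gave 2 to 5 called probes for the line difference, 1442 to 3836 calls over all probes in OVCAR5 (3065 with all arrays) and 2495 to 4182 for the line difference (3758 with all arrays). Uncalled values then changed sign in OVCAR5 for the dimmer TMEM97 probe (-0.10 to 0.12) and the brightest SREBF1 probe (-0.11 to 0.10). In the line difference they did so for SCAP (-0.087 to 0.171) and MBTPS1 (-0.050 to 0.294 and -0.082 to 0.410), and between lines under lovastatin for SREBF1 (-0.41 to 0.21). With the replicate number as a block, which the data do not show to pair the arrays, 8 probes were called in SKOV3, 4 in OVCAR5 and 3 for the line difference, and over all probes 7455, 3025 and 3824. Signal near background limits SREBF2, STARD4, the dimmer INSIG1 probe and 2 SREBF1 probes.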
